A study of Mus musculus with 30 samples.

Results

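Unstimulated bone marrow derived macrophages (BMDM) of mice without Ch25h were compared with those of wild-type mice. The 2 groups hold 6 of the 30 polyA RNA libraries of the series: 3 labelled Ch25h-/-, from mice numbered 1 to 3, and 3 labelled C57BL/6, also from mice numbered 1 to 3. They were chosen by their labels as the libraries of both genotypes with no compound and no stimulus, at stimulation time 0, and they serve in the series as controls for a study of OSBP ligands. Libraries of the same mouse numbers with lipopolysaccharide (LPS, 10 ng/mL, stimulation time 18, unit not given) and no compound, 3 per genotype, were set beside them as other cultures of these genotypes. The genotypes are different animals, so the shared numbers do not pair them. The sources used here do not give the age or sex of the mice, the part of Ch25h that was deleted, the strain in which the allele was made, or whether controls were littermates.

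Ch25h encodes cholesterol 25-hydroxylase, an enzyme of the endoplasmic reticulum that adds a hydroxyl group to cholesterol to make 25-hydroxycholesterol (25HC). In macrophages the gene is known for its induction by interferon and by Toll-like receptor ligands. 25HC holds the SREBP transcription factors, which drive cholesterol synthesis and uptake, in the endoplasmic reticulum, activates the LXR nuclear receptors, which drive cholesterol export, and binds OSBP, a carrier of sterol and phosphoinositide between the endoplasmic reticulum and the Golgi. CYP7B1 converts 25HC into a ligand of the receptor GPR183.

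The data are gene counts. Totals were 30634780 to 38711824 counts in the wild-type and 23656860 to 27530448 counts in the Ch25h-/- libraries. Every count was even in the 3 wild-type libraries, while 49.7 to 50.4% of the nonzero counts in the Ch25h-/- libraries were odd, so this difference in the counts and the genotype cannot be told apart. Of 30538 genes, 13173 were tested in 1 edgeR quasi-likelihood fit of all 30 libraries, and a gene is called at a Benjamini-Hochberg adjusted p under 0.05. Levels are CPM, counts scaled to library size, and differences are log2, Ch25h-/- minus wild type, with their standard error (SE). Wild-type mouse 3 stood apart from its group. Its median absolute log2 difference over all tested genes was 0.164 and 0.182 to wild-type mice 1 and 2, and 0.121 to 0.151 to the Ch25h-/- mice. Ch25h-/- mouse 2 was the Ch25h-/- library nearest to wild-type mice 1 and 2, at 0.14 and 0.156. Values without these libraries are given beside the results of many lists and genes.

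Ch25h itself was near 0 in the Ch25h-/- libraries. Its levels were 2.22, 2.24 and 1.42 CPM (94, 86 and 46 counts) in wild-type mice 1 to 3, and 0.277, 0 and 0.0768 CPM (7, 0 and 2 counts) in Ch25h-/- mice 1 to 3. The groups did not overlap, and the Ch25h-/- mean was 6.02% of the wild-type mean. The log2 difference was -4.11 ± 0.95 (95% interval -6.06 to -2.15), which was not called at these low counts (adjusted p = 0.0941). It was called by DESeq2 (adjusted p = 0.000699), and in edgeR without wild-type mouse 3 (adjusted p = 0.0245). In all, 4 of 22 alternative fits called it. The rest of these 4 were edgeR fits with the mouse number as a block, which does not pair the genotypes. The adjusted p of Ch25h was 0.319 with limma-voom and 0.489 in edgeR without wild-type mouse 2. The LPS libraries of wild type were at 1.23, 2.34 and 0.973 CPM and those of Ch25h-/- mice at 0.225, 0.127 and 0 CPM, again without overlap. Ch25h is annotated as 1 exon of 1387 bases on the minus strand at chr19:34473778-34475164 (GRCm38). The long noncoding gene Gm26902 starts inside it on the opposite strand, at 34474808, and the strand setting of the counting is not stated, so reads of the shared stretch cannot be told apart. Gm26902 held 0.236, 0.73 and 0.124 CPM in wild-type and 1.07, 1.29 and 0.615 CPM in Ch25h-/- libraries (1.43 ± 0.62, adjusted p = 0.333).

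A single gene was called among 13173 (0.00759% of genes tested), and it lies on the same chromosome as Ch25h, 19. Asah2 encodes neutral ceramidase, which splits ceramide into sphingosine and a fatty acid. It held 37.0, 39.1 and 31.7 CPM in wild-type mice 1 to 3 and 20.2, 22.6 and 18.7 CPM in Ch25h-/- mice 1 to 3. Every Ch25h-/- library was below every wild-type library, and the mean fell to 57.1% of wild type (-0.81 ± 0.10, 95% interval -1.01 to -0.61, adjusted p = 0.000194). With LPS the values were 42.6, 46.7 and 39.6 CPM against 28.3, 27.6 and 30.6 CPM, and the fall was called there too (-0.58 ± 0.10, adjusted p = 0.0104). The unstimulated and LPS differences of Asah2 were not shown to differ from each other (-0.23 ± 0.14, adjusted p = 0.513). Asah2 was not called when the 6 libraries were fitted alone (-0.81, adjusted p = 0.113), where edgeR called 0 genes and 2486 had an unadjusted p under 0.05. In fits of all 30 libraries, DESeq2 called 131 genes (1.07% of 12241) and limma-voom with a random effect of animal called 15 (0.114%).

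**Figure D1:**
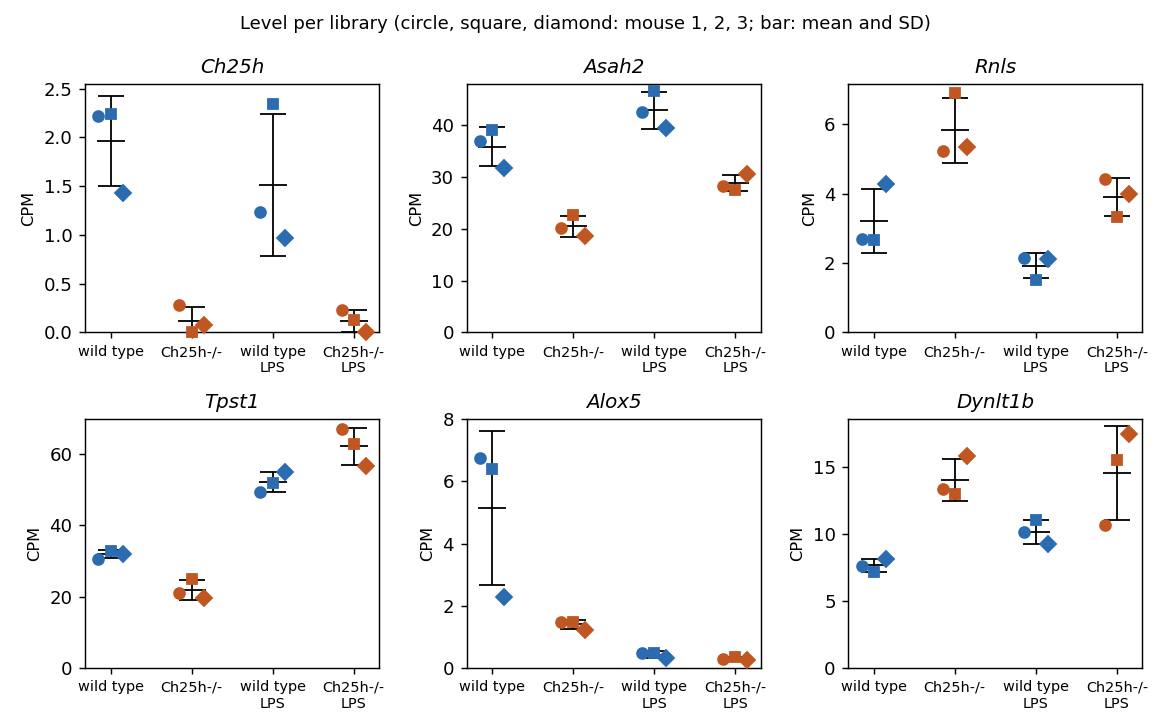
Level in CPM (vertical axis, from 0) of 6 genes in each library of wild-type (blue) and Ch25h-/- (orange) macrophages, unstimulated and with LPS. Symbols stand for mice 1 to 3 of each genotype, and bars for the mean and SD of 3 libraries. Asah2 lies at 18.7 to 22.6 CPM in unstimulated Ch25h-/- libraries and at 31.7 to 39.1 CPM in wild type, and Tpst1 is lower in Ch25h-/- libraries without LPS and higher with it.

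Asah2 spans chr19:31982597-32108211, with its start site 2.37 Mb from that of Ch25h. Of the 72 other genes tested within 6 Mb of the Ch25h start site, 16 (22.2%) had an unadjusted p under 0.05, against 11.4% of the 411 genes on the rest of the chromosome, 13.0% of the 12689 genes on the other chromosomes and 13% of all genes tested. The 16 include Ifit1, Ifit2, Ifit3 and I830012O16Rik, members of the interferon-stimulated list described below, which was also lower on other chromosomes. They also include Gm26902, which starts inside Ch25h. Ifit3 and I830012O16Rik hold the same stretch of 94 bases upstream of their start sites, and whether these 2 genes share reads was not tested. With LPS the shares of the window, the rest of chromosome 19 and the other chromosomes were 29.2%, 15.1% and 17.1%. The 6 Mb window holds 4 of the 30 genes called with LPS (0.228% of genes tested), and the rest of chromosome 19 holds 0 of them (62 with an unadjusted p under 0.05). The number called with LPS rested on single LPS libraries: it was 2396 without wild-type mouse 3, 3 and 4 without wild-type mice 1 and 2, and 0, 9 and 6 without Ch25h-/- mice 1, 2 and 3.

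Rnls was the neighbour called higher with LPS. It encodes renalase, a flavoprotein oxidase, and its start site lies 1.08 Mb from that of Ch25h, at chr19:33137747-33392295. Its unstimulated levels were 2.69, 2.66 and 4.27 CPM in wild-type and 5.23, 6.90 and 5.34 CPM in Ch25h-/- mice. The groups did not overlap, and wild-type mouse 3 was the highest of its group (0.87 ± 0.19, adjusted p = 0.0919). It was not called there. Among the LPS libraries Rnls was called higher in Ch25h-/- than in wild-type mice (1.02 ± 0.20, adjusted p = 0.0288). Its levels there were 2.15, 1.499 and 2.13 CPM in wild-type and 4.41, 3.34 and 3.99 CPM in Ch25h-/- mice. Rnls was called without stimulation by DESeq2 (adjusted p = 0.00698), by limma-voom (adjusted p = 0.0317) and in edgeR without wild-type mouse 3 (adjusted p = 0.0061). In all, 4 of 22 alternative fits called it, the last being edgeR with the mouse number as a block, which does not pair the genotypes. In edgeR the adjusted p of Rnls was 0.632 without wild-type mouse 2 and 0.166 with the 6 libraries alone.

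Other neighbours called between genotypes in the LPS libraries had no such difference in the unstimulated ones. Jak2, a kinase of cytokine receptors, was at -0.03 ± 0.13 unstimulated and was lower in Ch25h-/- than in wild-type LPS libraries (-0.66, adjusted p = 0.0288). Rcl1, a protein of ribosomal RNA processing, was at -0.14 ± 0.23 unstimulated and likewise lower in Ch25h-/- LPS libraries (-1.45, adjusted p = 0.00332). The test of the difference between conditions passed for neither (adjusted p = 0.289 for both).

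Of the genes next to Ch25h, the lysosomal acid lipase Lipa was at -0.03 ± 0.19 (adjusted p = 0.974), the deubiquitinase Stambpl1 at 0.01 ± 0.11 and the death receptor Fas at 0.02 ± 0.21. Acta2, smooth muscle actin, held 1.32, 1.72 and 1.30 CPM in wild-type and 1.74, 4.23 and 2.80 CPM in Ch25h-/- libraries. These groups did not overlap (1.02 ± 0.31, adjusted p = 0.173), and Acta2 is also a stromal marker, described with that list below. The interferon-induced Ifit2 and Ifit3, on the other side of Ch25h, were lower at -1.04 ± 0.39 and -1.03 ± 0.31 (adjusted p = 0.273 and 0.173), as were interferon-induced genes on other chromosomes. Ide, which encodes the insulin-degrading enzyme 2.86 Mb away, was at 48.9, 56.4 and 52.5 CPM in wild-type and 28.8, 42.4 and 31.7 CPM in Ch25h-/- libraries (-0.62 ± 0.29, adjusted p = 0.375).

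**Figure D2:**
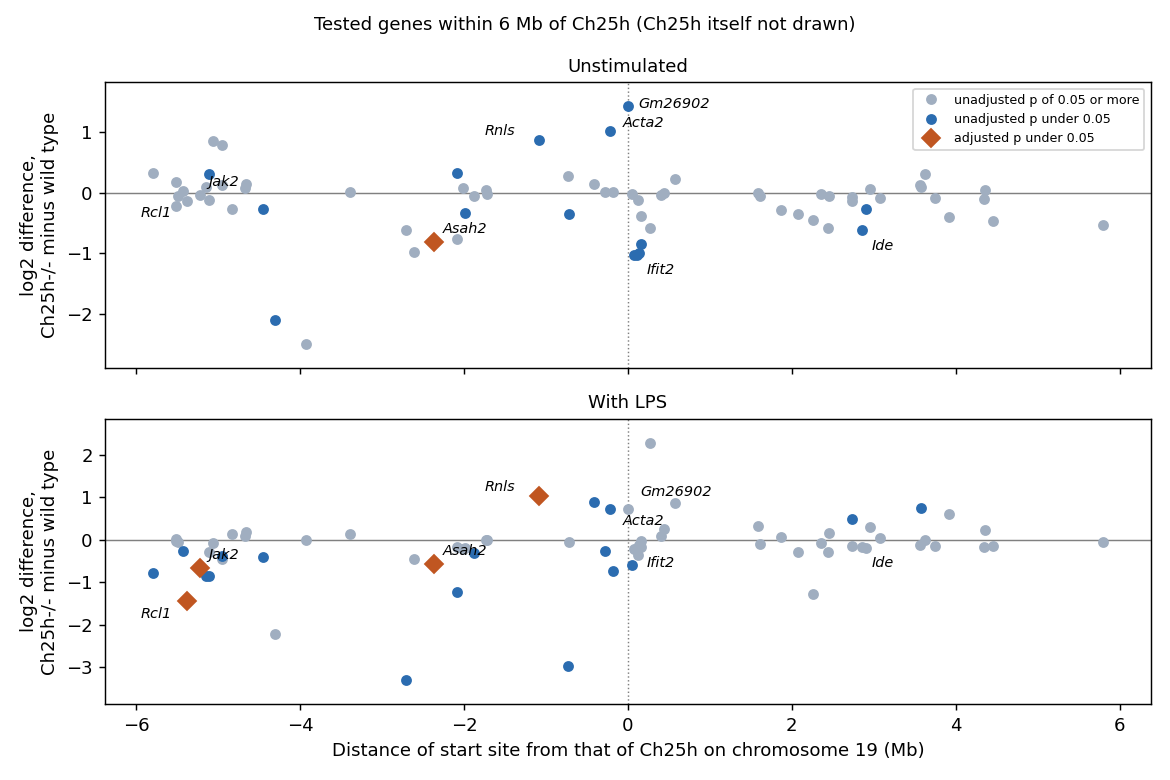
Log2 difference between genotypes (vertical axis) of the 72 tested genes within 6 Mb of Ch25h against the distance of their start site from that of Ch25h in Mb (horizontal axis), unstimulated above and with LPS below. Diamonds are called genes: Asah2 at -0.81 in the upper panel, and Asah2, Rnls, Rcl1 and Jak2 in the lower panel.

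Beyond the called gene, 37 more had an adjusted p under 0.1 (38 in all, 0.288% of genes tested), 15 of the 38 higher and 23 lower. Asah2 and Rnls were the 2 of them called with LPS. The 19 genes in the next paragraphs were chosen by their p in this comparison among genes whose groups do not overlap (21% of all genes tested), and none was called in the fit of all libraries. Without wild-type mouse 3 all 19 were called (2.69% of all genes), with adjusted p from 0.000742 to 0.0362. Without Ch25h-/- mouse 2, 15 were called (0.433% of all genes), and Fam57a, Rab2b, Zbtb37 and 2610015P09Rik were not. Both fits reuse the libraries by which the 19 were chosen, so these calls are no separate support for them.

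Among genes lower in Ch25h-/- libraries, Alox5, the 5-lipoxygenase gene of leukotriene synthesis, held 6.76, 6.41 and 2.29 CPM in wild-type and 1.47, 1.49 and 1.23 CPM in Ch25h-/- libraries. Wild-type mouse 3 lay nearest to the Ch25h-/- group, without overlap (-1.89 ± 0.35, adjusted p = 0.0628). Tpst1, a Golgi enzyme that adds sulfate to tyrosines, held 30.6, 32.9 and 32.0 CPM against 21.0, 24.9 and 19.5 CPM (-0.54 ± 0.10, adjusted p = 0.0628). With LPS the sign of Tpst1 turned, at 49.4, 51.9 and 54.9 CPM against 67.0, 62.8 and 56.7 CPM (0.26 ± 0.10, adjusted p = 0.195). Its difference between conditions had the smallest p of all genes in that test, which did not pass (-0.80 ± 0.14, adjusted p = 0.0712). Stat4, a transcription factor of interleukin-12 and interferon signalling, held 9.55, 11.8 and 6.44 CPM against 2.54, 5.09 and 3.53 CPM (-1.31 ± 0.27, adjusted p = 0.0919). Its groups were separate, with wild-type mouse 3 again the lowest of its group.

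The other genes of this kind had smaller differences. Lypla1, an acyl-protein thioesterase, was at -0.51 ± 0.10 (adjusted p = 0.0633) and Cisd2, an iron-sulfur protein of the endoplasmic reticulum and mitochondria, at -0.33 ± 0.07 (adjusted p = 0.0813). Vma21, an assembly factor of the vacuolar proton pump, was at -0.55 ± 0.12, Ckap4, an anchor protein of endoplasmic reticulum sheets, at -0.51 ± 0.11, and Ubash3b, a phosphatase that limits tyrosine kinase signalling, at -0.78 ± 0.17 (adjusted p = 0.0919 for each). Fam57a was at -0.68 ± 0.15 (adjusted p = 0.0919), with 2.44 to 2.496 CPM in the Ch25h-/- and 3.53 to 4.33 CPM in the wild-type libraries.

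Among genes higher in Ch25h-/- libraries the smallest p belonged to Dynlt1b, a dynein light chain. It held 7.66, 7.19 and 8.17 CPM in wild-type and 13.4, 13.0 and 15.8 CPM in Ch25h-/- libraries (0.87 ± 0.17, adjusted p = 0.0633). The groups stood well apart, but Dynlt1b is 1 of several near-identical Dynlt1 genes, so its counts are uncertain. Ms4a14, a membrane protein of the MS4A family, held 45.6, 41.5 and 67.1 CPM against 111, 75.1 and 94.9 CPM (0.87 ± 0.19, adjusted p = 0.0919). Zfyve27, which shapes the endoplasmic reticulum and sorts recycling endosomes, was at 0.32 ± 0.07 (adjusted p = 0.0813), and Rab2b, a GTPase of Golgi traffic, at 0.44 ± 0.09 (adjusted p = 0.0919). Clk1, a kinase of splicing factors, was at 0.48 ± 0.11, Mink1, a kinase of the Ste20 family, at 0.52 ± 0.12, Cacnb1, a calcium channel subunit, at 0.74 ± 0.17, and Lmbr1l, a membrane receptor, at 0.50 ± 0.12 (adjusted p = 0.0941 for each). Zbtb37 and 2610015P09Rik were at 0.66 ± 0.15 and 0.62 ± 0.14. With LPS these 10 genes lay between -0.09 and 0.52, and none was called.

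The genes that 25HC is known to act through had no call. Of 9 tested genes of oxysterol enzymes and the receptor, 0 were called by edgeR. An unadjusted p under 0.05 was reached by 3 (13% of all genes), Ch25h among them. Ch25h was the lowest of these 9. Gpr183, the receptor for the CYP7B1 product, held 24.6, 33.5 and 32.1 CPM in wild-type and 28.8, 30.3 and 30.3 CPM in Ch25h-/- libraries, which overlap (-0.01 ± 0.33, 95% interval -0.70 to 0.67). Cyp7b1 had counts in 1 of the 6 libraries, at 0.0792 CPM. Cyp27a1, the sterol 27-hydroxylase, held 56.9, 44.0 and 96.1 CPM against 140, 85.7 and 122 CPM, with wild-type mouse 3 above Ch25h-/- mouse 2 (0.82 ± 0.36, adjusted p = 0.333).

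Cholesterol synthesis genes leaned lower in Ch25h-/- macrophages, but wild-type mouse 3 lay with the Ch25h-/- libraries. Of 20 tested, 18 had a negative difference, the median was -0.29 against 0.00 over all genes tested, and 7 had an unadjusted p under 0.05 on the lower side, where 6.97% of all genes did. Not 1 of the 20 had groups without overlap on the lower side (9.85% of all genes), and 0 were called by edgeR, DESeq2 or limma-voom. Fdps, which makes farnesyl diphosphate, shows the pattern: 76.1, 85.6 and 42.7 CPM in wild-type mice 1 to 3 and 34.0, 61.9 and 43.2 CPM in Ch25h-/- mice (-0.56 ± 0.21, adjusted p = 0.275). Wild-type mouse 3 was inside the range of the Ch25h-/- group. Sqle, squalene epoxidase, held 87.4, 105 and 50.04 CPM against 46.2, 74.8 and 54.2 CPM (-0.47 ± 0.20, adjusted p = 0.314). Acat2, which begins the pathway by joining acetyl-CoA units, was at -0.60 ± 0.21 (adjusted p = 0.231), and Lss, lanosterol synthase, at -0.38 ± 0.16 (adjusted p = 0.308).

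Hmgcs1, which makes HMG-CoA, held 151, 168 and 106 CPM in wild-type and 104, 129 and 111 CPM in Ch25h-/- libraries (-0.31 ± 0.13, adjusted p = 0.314). Wild-type mouse 3 lay inside the Ch25h-/- range here too. Without wild-type mouse 3 the median of the list was -0.46 and 6 of the 20 genes were called lower, against 1.58% of all genes in that fit. Without wild-type mouse 2 the median was -0.15. With LPS the median was -0.13, and 0 were called.

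SREBP control genes differed less. The median of 16 tested was -0.08 (-0.04 to -0.11 with 1 library left out). An unadjusted p under 0.05 was reached by 2, both lower (6.97% of all genes). Insig1, whose product keeps SREBP from leaving for the Golgi and which is itself an SREBP target, held 195, 196 and 122 CPM against 111, 151 and 135 CPM (-0.37 ± 0.14, adjusted p = 0.279). Srebf2 was at -0.21 ± 0.09 (adjusted p = 0.324) and Srebf1 at -0.19 ± 0.10 (adjusted p = 0.404). The 95% interval excluded a 2-fold difference for 15 of the 16, as it did for 78.8% of all genes tested. Of 13 fatty acid synthesis genes 11 were negative, with a median of -0.16 and 0 calls (2 with an unadjusted p under 0.05, both lower, against 6.97% of all genes). Their median was -0.41 without Ch25h-/- mouse 2 and -0.33 without wild-type mouse 3. Over all fits with 1 library left out it ran from -0.41 to -0.11. The elongase Elovl5 had the smallest p of these (-0.23 ± 0.09, adjusted p = 0.267).

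LXR targets leaned the other way. Of 15 tested, 12 were positive, with a median of 0.12 (0.28 without wild-type mouse 3, 0.07 without wild-type mouse 2) and 0 calls. An unadjusted p under 0.05 was reached by 1 (13% of all genes). That gene was Abca1, the exporter of cholesterol to apolipoprotein A-I, at 295, 278 and 452 CPM in wild-type and 551, 402 and 500 CPM in Ch25h-/- mice. Wild-type mouse 3 exceeded Ch25h-/- mouse 2 (0.50 ± 0.21, 95% interval 0.07 to 0.94, adjusted p = 0.309). Abcg1, the second exporter, was at 0.20 ± 0.13 (95% interval -0.08 to 0.47). Osbp held 76.6, 71.9 and 68.9 CPM against 71.0, 74.2 and 63.7 CPM, which overlap (-0.06 ± 0.09, 95% interval -0.23 to 0.12). Of 21 genes of the OSBP family and its membrane contact partners 0 were called by edgeR and 0 had an unadjusted p under 0.05. DESeq2 and limma-voom called 0 of the 20 cholesterol, 15 LXR and 21 OSBP family genes.

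**Figure D3:**
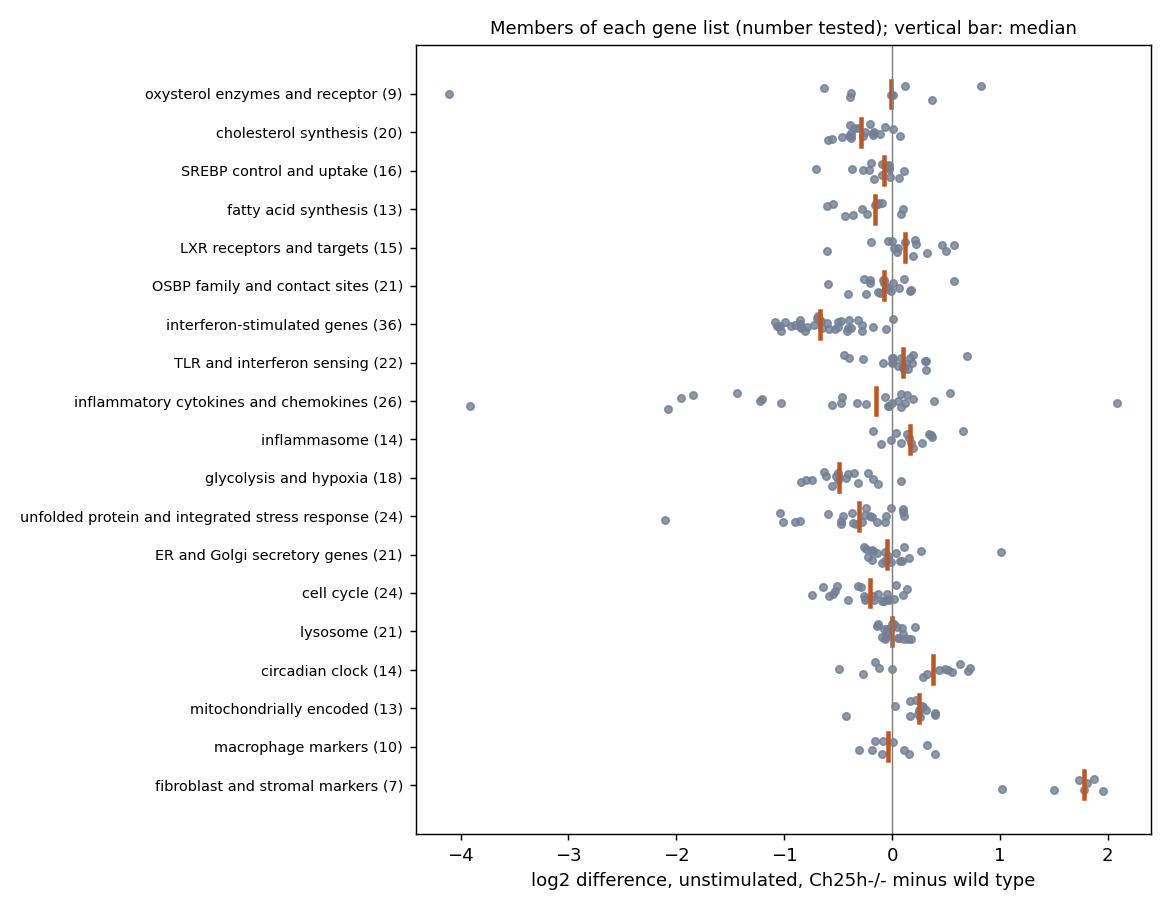
Log2 difference between genotypes without stimulation (horizontal axis) for the tested members of 19 gene lists (rows, with the number tested). Points are genes and vertical bars list medians, which lie at -0.67 for interferon-stimulated genes, -0.49 for glycolysis and 1.78 for stromal markers.

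Interferon-stimulated genes were the immune list with the lowest median. Of 36 tested, 35 were lower in Ch25h-/- libraries, with a median of -0.67. An unadjusted p under 0.05 was reached by 26 on the lower side (6.97% of all genes), and 18 had groups without overlap on that side (9.85% of all genes). The list's genes are known to be induced together, so these counts are not independent. edgeR called 0 of them, DESeq2 4 (1.07% of all genes in either direction) and limma-voom 0. Their summed level was 2972, 3699.8 and 3347 CPM in wild-type and 1923, 2814 and 1920.2 CPM in Ch25h-/- mice. Ch25h-/- mouse 2 was close below wild-type mouse 1, and the other Ch25h-/- mice were far below. Without Ch25h-/- mouse 2 the median was -0.87 and edgeR called 4 (0.328% of all genes were called lower in that fit). Without wild-type mouse 3 it was -0.61 with 3 called (1.58% of all genes lower). Over all fits with 1 library left out the median ran from -0.87 to -0.52.

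Dhx58, the RNA helicase LGP2, held 83.3, 120 and 84.7 CPM in wild-type and 51.2, 77.2 and 53.8 CPM in Ch25h-/- mice, which do not overlap (-0.66 ± 0.16, adjusted p = 0.113). Usp18, which removes ISG15 from proteins and restrains interferon receptors, held 25.9, 33.3 and 31.3 CPM against 10.4, 21.3 and 11.3 CPM (-1.07 ± 0.29, adjusted p = 0.141). In both of these genes mouse 2 was the highest of both genotypes. Zbp1, a sensor of Z-form nucleic acid, was at -0.81 ± 0.23 (adjusted p = 0.155) and Irf7, which amplifies interferon transcription, at -0.69 ± 0.24 (adjusted p = 0.234). Ifit1, a binder of foreign RNA, held 49.002, 62.1 and 99.3 CPM against 31.2, 57.2 and 28.3 CPM. Ch25h-/- mouse 2 lay inside the wild-type range of Ifit1 (-0.85 ± 0.33, adjusted p = 0.278). With LPS the median of the list was -0.07, with Ifit3 at -0.19 and Usp18 at -0.06. The test of the difference between conditions passed for none of the 36.

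Interferon acts on such genes through the interferon-stimulated response element, a promoter motif. Its core was searched as GAAANNGAAA on both strands (TTTCNNTTTC on the other strand) in RefSeq promoter windows of 300 bases, 250 of them before the start site (GRCm38.p6). A window was found for 27 of the 36 genes and 17 of these (63.0%) held a match, against 3.261% of the 10059 tested genes with a window. The list was drawn from known interferon-induced genes and the search used no expression values, so this share does not bear on the genotype difference. Overlapping matches were kept. The upstream stretches of Ifit3 and Ifit1, which lie beyond Lipa from Ch25h, are shown because both genes were described above and each holds 2 matches, here in capitals and in the orientation of the gene (plus strand).
Ifit3: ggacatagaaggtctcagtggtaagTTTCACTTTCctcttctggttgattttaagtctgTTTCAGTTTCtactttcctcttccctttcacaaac
Ifit1: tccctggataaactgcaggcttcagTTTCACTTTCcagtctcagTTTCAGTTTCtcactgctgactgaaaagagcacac
The first covers chr19:34583348-34583441 and ends its last match 113 bases before the start site. The second covers chr19:34640760-34640838, with its last match ending 76 bases before the start site. I830012O16Rik holds the same stretch as Ifit3 in its own window. The windows of Ifit2 and Irf7 held no match, which says only that these letters are not in them.

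Inflammatory genes showed no call at rest. Of 26 cytokine and chemokine genes tested, 17 were negative, with a median of -0.15 (-0.04 without wild-type mouse 3, -0.09 without Ch25h-/- mouse 2 or 3). edgeR called 0 and 1 had an unadjusted p under 0.05 (13% of all genes). That gene was Saa3, an acute-phase apolipoprotein, at 4.02, 1.04 and 5.57 CPM in wild-type and 1.58, 0.562 and 0.384 CPM in Ch25h-/- libraries (-2.08 ± 0.61, adjusted p = 0.167). DESeq2 called 1 (1.07% of all genes in either direction) and limma-voom 0. The chemokine Ccl2 held 31.0, 48.5 and 16.7 CPM against 8.40, 17.6 and 15.2 CPM (-1.22 ± 0.61, adjusted p = 0.403), and Ccl7 was at -1.44 ± 0.74 (adjusted p = 0.416). Tnf held 10.9, 14.3 and 10.6 CPM against 6.86, 9.71 and 7.72 CPM, without overlap (-0.56 ± 0.46, adjusted p = 0.643). Il1b was near 0 to 2 CPM in both genotypes, at 2.13, 0.313 and 2.04 CPM against 2.14, 0.694 and 2.00 CPM. Mouse 2 was lowest in each genotype (0.09 ± 0.45, 95% interval -0.84 to 1.01). Il10 was at -0.04 ± 0.30. Ptges, which makes prostaglandin E2, was at 1.04, 0.886 and 0.929 CPM against 0.396, 0.496 and 0.499 CPM (-1.03 ± 0.51, adjusted p = 0.393). Among the LPS libraries Ptges was called lower in Ch25h-/- than in wild-type mice (-1.29, adjusted p = 0.0293).

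Of the inflammasome genes, 11 of 14 tested were positive, with a median of 0.16 and 0 calls. With 1 library left out the median ran from 0.13 to 0.28, the latter without wild-type mouse 3. An unadjusted p under 0.05 was reached by 3, all higher (6.07% of all genes). These were the flagellin sensors Naip6 and Naip5 and their partner Nlrc4. Nlrc4 held 15.3, 15.1 and 15.9 CPM in wild-type and 18.0, 18.5 and 19.5 CPM in Ch25h-/- mice, without overlap (0.28 ± 0.09, adjusted p = 0.212). Naip5 was at 0.34 ± 0.11 and Naip6 at 0.37 ± 0.12 (adjusted p = 0.216 and 0.207), and these close copies may share reads. Aim2, the DNA sensor, held 44.3, 42.7 and 44.7 CPM against 39.6, 45.3 and 45.9 CPM (-0.01 ± 0.10, 95% interval -0.22 to 0.20). Of 22 genes of Toll-like receptors and interferon sensing 0 were called. An unadjusted p under 0.05 was reached by 4 (13% of all genes), 2 higher and 2 lower. Tlr9, the receptor of CpG DNA, was at 0.69 ± 0.24 (adjusted p = 0.225), and Tlr3 and Tlr13, receptors of RNA, at -0.44 ± 0.15 and -0.27 ± 0.08 (adjusted p = 0.225 and 0.184).

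Glycolysis genes leaned lower in Ch25h-/- libraries, without a call. Of 18 tested, 17 were negative with a median of -0.49. On the lower side 13 had an unadjusted p under 0.05 (6.97% of all genes), and 13 had groups without overlap (9.85% of all genes). edgeR called 0, DESeq2 3 (1.07% of all genes in either direction) and limma-voom 0. Pgam1, phosphoglycerate mutase, held 84.2, 95.7 and 62.5 CPM in wild-type and 45.8, 59.9 and 52.9 CPM in Ch25h-/- mice (-0.61 ± 0.14, adjusted p = 0.0941). Eno1, the enolase after it, held 194, 245 and 171 CPM against 115, 150 and 129 CPM (-0.63 ± 0.15, adjusted p = 0.0999). The groups of both were separate, with mouse 2 the highest of each genotype. Pfkl, a phosphofructokinase, was at -0.80 ± 0.22 (adjusted p = 0.148) and Gapdh at -0.50 ± 0.15 (adjusted p = 0.173). Eno1 and Gapdh have near-identical copies in the genome, so their counts are uncertain. Without wild-type mouse 3 the median was -0.60 with 5 called (1.58% of all genes lower). Without Ch25h-/- mouse 2 it was -0.56 with 2 called (0.328% of all genes lower). It was weakest, at -0.33, without wild-type mouse 2, and with LPS it was -0.03.

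Stress and replication genes followed the pattern of the cholesterol list, with wild-type mouse 3 near the Ch25h-/- libraries. Of 24 genes of the unfolded protein and integrated stress responses, 21 were negative (median -0.31), and 12 had an unadjusted p under 0.05, all lower (6.97% of all genes). Groups without overlap were seen in 2 of the 24, a share near that of all genes (9.85% lower). Mthfd2, a mitochondrial folate enzyme, held 38.4, 41.2 and 20.4 CPM against 14.4, 26.0 and 14.7 CPM (-0.86 ± 0.26, adjusted p = 0.173), and Phgdh, the first enzyme of serine synthesis, was at -1.01 ± 0.33 (adjusted p = 0.198). The chaperones Pdia6 and Hyou1 were at -0.48 ± 0.16 and -0.45 ± 0.15. edgeR called 0 of these genes, DESeq2 1 (1.07% of all genes in either direction) and limma-voom 0. Without wild-type mouse 3 edgeR called 5 (1.58% of all genes lower).

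Of 24 cell cycle genes 20 were negative (median -0.21) and 9 had an unadjusted p under 0.05, all lower (6.97% of all genes). edgeR called 0, DESeq2 1 (1.07% of all genes in either direction) and limma-voom 0. Without wild-type mouse 3 edgeR called 4 (1.58% of all genes lower). The replication helicase subunit Mcm6 held 172, 212 and 127 CPM against 102, 143 and 104 CPM, with wild-type mouse 3 below Ch25h-/- mouse 2 (-0.55 ± 0.15, adjusted p = 0.148). Rrm2, a ribonucleotide reductase subunit, was at -0.51 ± 0.14 (adjusted p = 0.154). Of 21 genes of transport between endoplasmic reticulum and Golgi 5 had an unadjusted p under 0.05, all lower (6.97% of all genes), and the median was -0.05 (-0.03 to -0.07 with 1 library left out). Sec24d and Sar1b, parts of the COPII vesicle coat, were at -0.25 ± 0.09 and -0.22 ± 0.08. Of 21 lysosome genes 0 had an unadjusted p under 0.05, and their differences lay between -0.14 and 0.21.

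**Figure D4:**
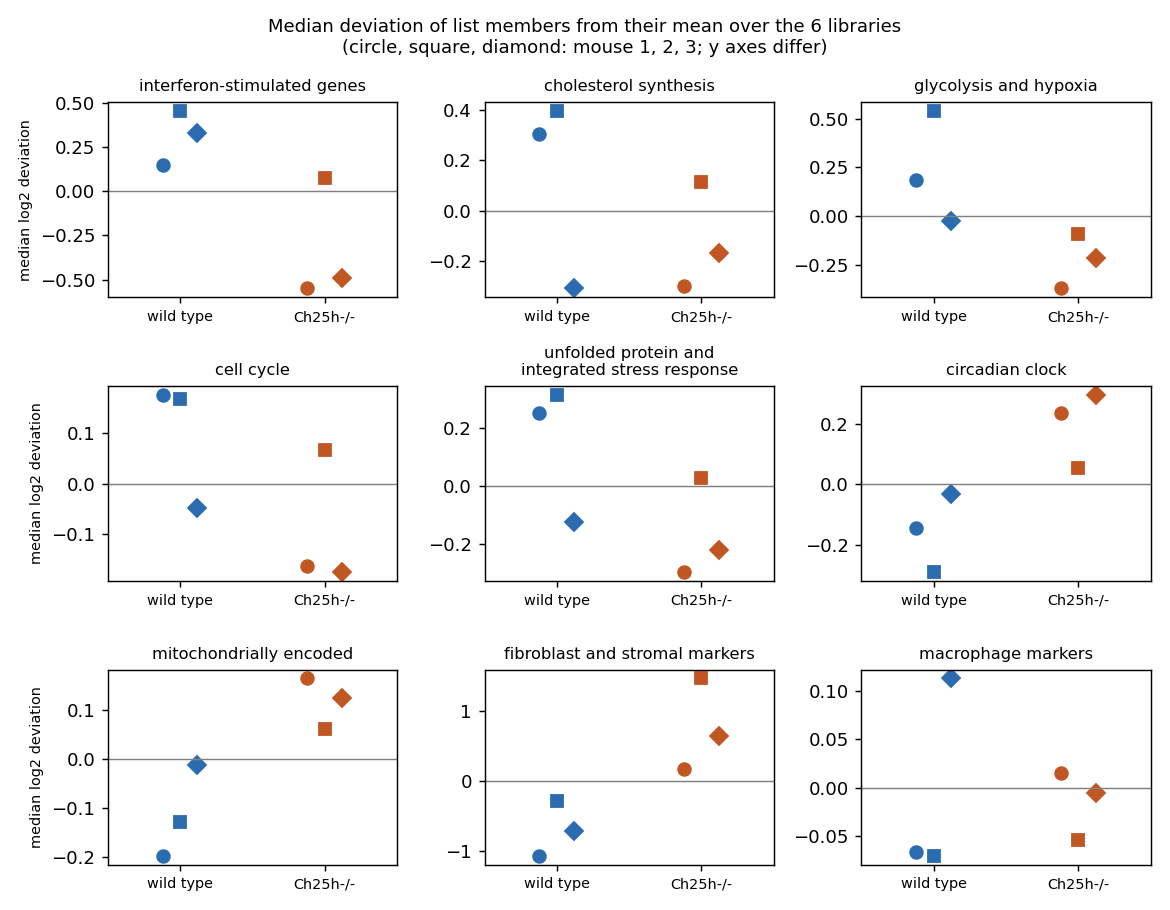
Median over the tested members of each of 9 lists of the log2 deviation from the member's mean over the 6 unstimulated libraries (vertical axis; its range differs between panels), for wild-type (blue) and Ch25h-/- (orange) mice 1 to 3. In the cholesterol panel wild-type mouse 3, at -0.31, is the lowest of the 6 libraries, while in the interferon panel the 3 wild-type libraries lie above the 3 Ch25h-/- libraries.

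Clock genes leaned higher. Of 14 tested, 10 were positive with a median of 0.38, 5 had an unadjusted p under 0.05 on the higher side (6.07% of all genes) and 8 had groups without overlap there (11.1% of all genes). Per3, a repressor in the clock, held 15.3, 15.997 and 23.3 CPM in wild-type and 31.7, 25.4 and 33.0 CPM in Ch25h-/- mice (0.72 ± 0.23, adjusted p = 0.189). Per2 and Cry2, of the same repressor complex, were at 0.71 ± 0.23 and 0.43 ± 0.13 (adjusted p = 0.198 and 0.173). Arntl, the activator they repress, was lower at -0.27 ± 0.08 (adjusted p = 0.188). edgeR and DESeq2 called 0 of the list and limma-voom 1 (0.114% of all genes in either direction). Without wild-type mouse 3 edgeR called 2 (1.11% of all genes higher). The hour of harvest is not given in the sources used here. With LPS the median was -0.06.

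Mitochondrially encoded transcripts made up 1.63 ± 0.07% of counts in wild-type and 1.92 ± 0.07% in Ch25h-/- libraries (SD, n = 3). Of 13 tested, 12 were positive with a median of 0.25, and 11 had groups without overlap on the higher side (11.1% of all genes). mt-Atp8, a subunit of ATP synthase, had groups without overlap on the lower side. mt-Co1, a subunit of cytochrome oxidase, held 6995, 7488 and 7749 CPM against 9447, 8074 and 8779 CPM (0.24 ± 0.10, adjusted p = 0.308). This share moved with genotype, and its part in the lists above was not tested. Differences also moved with transcript length: the median was -0.03 for genes with under 1000 exonic bases and 0.11 for those over 16000. With each library's length trend removed, list medians were -0.67 for interferon-stimulated genes, -0.48 for glycolysis, -0.29 for cholesterol synthesis, 0.39 for clock and 0.27 for mitochondrial genes.

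Macrophage markers were abundant in every library, and those of stromal cells were low in all and higher in Ch25h-/- cultures. Of 10 macrophage markers 0 were called (1, higher, without wild-type mouse 3), the median was -0.04, and the summed level was 20176 to 24350.0 CPM in wild-type and 20498 to 25237 CPM in Ch25h-/- libraries. Csf1r, the receptor of the macrophage growth factor, held 1921, 1745 and 2646 CPM against 3233, 2258 and 2835 CPM (0.40 ± 0.15, adjusted p = 0.273). Of 8 fibroblast and stromal markers 7 were tested, and all 7 were higher with an unadjusted p under 0.05 (6.07% of all genes; median 1.78), 5 without overlap (11.1% of all genes). edgeR and limma-voom called 0 and DESeq2 2 (1.07% of all genes in either direction). Their summed level was 3.73 to 5.73 CPM in wild-type and 8.40 to 18.9 CPM in Ch25h-/- libraries. It was 8.94 to 16.1 CPM against 19.4 to 31.1 CPM with LPS. The median difference of the 7 with LPS was 1.52, but Pdgfrb was at 0.10 and Dcn at -0.55 there.

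Col1a2, a chain of type I collagen, held 0.945, 1.82 and 1.11 CPM against 2.496, 6.31 and 4.11 CPM (1.74 ± 0.43, adjusted p = 0.113). Its partner chain Col1a1 was at 1.96 ± 0.64 and the growth factor receptor Pdgfrb at 1.78 ± 0.50 (adjusted p = 0.207 and 0.153). Ch25h-/- mouse 2 had the highest Col1a2 level of the 6. In bulk RNA more cells of a type and more RNA per cell cannot be told apart, and the part of these transcripts in other differences was not tested. Of 5 tested osteoclast markers 2 were higher and 3 lower, with a median of -0.04. Only 1, Ctsk, cathepsin K, had an unadjusted p under 0.05, on the higher side (6.07% of all genes). It was at 7.65, 6.74 and 7.11 CPM against 3.21, 3.07 and 4.27 CPM in wild type (1.03 ± 0.33, adjusted p = 0.205). With LPS the Ctsk difference was -0.24. Of 6 tested neutrophil, 6 monocyte and 4 dendritic cell markers 0 had an unadjusted p under 0.05, and Ly6g was at 0 in all 6 libraries. The median differences of these lists were 0.43, -0.04 and -0.22, and 0.64, 0.19 and 0.30 without wild-type mouse 3. Without wild-type mouse 1 they were 0.14, -0.16 and -0.47. Markers of red cells and megakaryocytes summed to 243 to 297 CPM in wild-type and 151 to 211 CPM in Ch25h-/- libraries, which do not overlap. Of 2 tested, 1 was lower at an unadjusted p under 0.05 (6.97% of all genes). Of the markers of lymphocytes and of mast cells and basophils 1 each was tested, at 0.48 and -0.31. Of 10 class II presentation and 18 immediate early genes 0 were called. Their medians were 0.05 in both lists (0.31 and 0.10 without wild-type mouse 3, -0.04 and -0.01 without wild-type mouse 1). An unadjusted p under 0.05 was reached by 0 and 3 of them (13% of all genes).

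Xist was at 287 to 342 CPM in wild-type and 351 to 418 CPM in Ch25h-/- libraries, and the Y-linked genes Ddx3y, Eif2s3y and Kdm5d were at 0 in all 6. Of 5 tested genes that differ between mouse strains or substrains 0 were called (2 lower at an unadjusted p under 0.05, against 6.97% of all genes). Nnt, which lacks exons in the C57BL/6J substrain, held 49.2, 47.1 and 49.5 CPM against 49.6, 46.2 and 45.1 CPM (-0.05 ± 0.17, 95% interval -0.39 to 0.29).

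Without wild-type mouse 3, edgeR called 361 genes, 149 higher and 212 lower (2.69% of 13403 tested), and without Ch25h-/- mouse 2 it called 58 (0.433%). Asah2 was among both. Leaving out any of the other 4 unstimulated libraries called 1 gene, Asah2. Over all genes the median SE was 0.14, and the 95% interval excluded a 2-fold difference for 10378 genes (78.8%) and a 1.5-fold difference for 8202 (62.3%).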

How the data were processed

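The authors deposited 1 table of raw gene counts for 30 polyA-selected, stranded libraries. Per the submitters' processing notes, reads went through FastQC 0.11.9, GSNAP (GRCm38/mm10), featureCounts of Subread 1.5.2 and edgeR 3.26.8. The annotation release is not given in the sources used here. Of the gene identifiers, 30126 were matched to GENCODE vM21, which gave positions and exon lengths.

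Counts were used as deposited. They were TMM-normalized, filtered with filterByExpr (minimum count 10) and fitted in R 4.3.3 with edgeR 4.0.16 (glmQLFit, glmQLFTest) over 10 groups of 3 libraries, with Benjamini-Hochberg adjustment over 13173 genes. The tested genes held at least 99.98% of each library's counts. The SE was taken from the log2 difference and its F statistic (the difference over the root of F), and intervals use the t distribution with the fit's degrees of freedom, so both are approximate. The spread comes from all 10 groups. Each animal's libraries were taken as independent. Whether replicates were separate cultures is known only through the mouse label. The steps were tested on simulated data. CPM uses TMM-scaled library sizes, and 3 counts correspond to 0.0709 to 0.119 CPM in the 6 libraries.

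Named genes are the called gene, the 10 higher and 10 lower genes with the smallest p among those with groups without overlap and a mean log2 CPM of 2 or more, up to 4 members of each of 31 gene lists by p, a set of 22 genes, and the 4 tested genes nearest to Ch25h on each side. Some genes that the rule names are not reported here. Rcl1, Jak2 and the stretches of Ifit1 and Ifit3 were chosen after their values were seen. The comparison, lists and rule were set with earlier results of these data known. Alternatives were run with limma 3.58.1, DESeq2 1.42.0 and edgeR, and summaries with Python 3.11.15, pandas 2.3.3 and matplotlib 3.10.9.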

Additional observations from a re-analysis of the deposited data

How the results depend on the processing

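Counts of called genes depended on the setting. In place of 1, the unstimulated comparison called 5 with DESeq2 size factors, 2 without the low-count filter, 0 with the compared libraries alone, 15 with limma-voom, 131 with DESeq2, 6 with even counts halved, and, in alternatives chosen after seeing the data, 2 with the exon length trend and 5 with the GC trend removed. Leaving out 1 of 12 libraries gave 1 to 361. In place of 30 with LPS, the count was 81 without the filter, 0 with the compared libraries alone, 1 with limma-voom, 223 with DESeq2 and 58 with even counts halved, and 0 to 2396 with 1 library left out (2396 without wild-type LPS mouse 3). The difference between conditions called 0, or 1 with limma-voom and 14 with DESeq2, and 0 to 716 with 1 library left out. The cause was not tested.

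With the mouse number as a replicate block, 30 genes were called unstimulated and 78 with LPS in the 30-library fit, and 524 and 0 with the compared libraries alone. The genotypes are different animals, so the numbers do not pair them. Same-numbered unstimulated libraries correlated at -0.07, 0.23 and 0.06 after removal of group means, and different-numbered ones at -0.26 to 0.19. Deviations from a mean of 3 libraries are not independent, so these values cannot decide whether same-numbered libraries were handled together. That was not tested.

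Asah2 kept its direction throughout (-0.89 to -0.74) and its call in 21 of 22 alternatives. Not all of these fits bear on it: leaving out an LPS library takes nothing from the unstimulated groups and left Asah2 at -0.81. The blocks by mouse number do not pair the genotypes. Named genes near 0 turned sign: with limma-voom Gpr183 was at 0.0040 and Il10 at 0.0085, and with the length trend removed Gpr183 was at 0.0057 and Aim2 at 0.0054. With 1 unstimulated or LPS library left out the differences ran from -0.086 to 0.021 for Jak2, -0.050 to 0.086 for Stambpl1, -0.11 to 0.16 for Fas, -0.11 to 0.0032 for Osbp, -0.14 to 0.072 for Gpr183, -0.40 to 0.48 for Il1b, -0.16 to 0.17 for Il10 and -0.048 to 0.055 for Aim2.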
